A study of Homo sapiens with 12 samples.

Results

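The hemoglobin genes and their chaperone were followed in HUDEP-2, a line of erythroid precursors immortalised from human cord blood, which depends on signaling through Kit, the receptor for stem cell factor (SCF). The genes were chosen by symbol: HBB, HBD, HBG1, HBG2 and HBE1 of the beta-like cluster, HBA1, HBA2, HBZ and HBM of the alpha-like cluster, and AHSP, which makes 10 of the 54628 genes in the count matrix. All 10 passed the filter on low counts and were among 15492 genes tested. RNA was measured by mRNA-seq in 12 libraries, 3 for each of 4 groups. The study asked how acute Kit signaling acts on transcription and what part of that response passes through EGR1, an immediate early transcription factor.

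Every group was starved of growth factors for 5 h and then given either the vehicle PBS or 50 ng/mL SCF for 1 h. The groups sgControl PBS and sgControl SCF carried a control guide, and the groups sgEGR1 PBS and sgEGR1 SCF carried a guide to an element beside EGR1. By the study's methods both guides were delivered with dCas9-KRAB, a repressor fusion without nuclease activity, by lentivirus, and cells were sorted for GFP. All 4 groups came from cells expanded with dexamethasone, erythropoietin, SCF and doxycycline, so the PBS groups had also met SCF before the starvation. Only 1 guide stood for EGR1 and only 1 for the control, so an effect of the guide or of the infected cell population cannot be told apart from an effect of EGR1.

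Hemoglobin is a tetramer of alpha-like and beta-like chains, each holding heme. The beta-like genes are used in developmental order, HBE1 in the embryo, HBG1 and HBG2 in the fetus, and HBD and HBB in the adult. In the alpha-like cluster HBZ is embryonic and HBA1 and HBA2 serve the fetus and adult, while AHSP binds free alpha chains and keeps them soluble until they pair. HUDEP-2 is known as a line of mostly adult globin type, with HBB as its main beta-like gene.

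The sgEGR1 guide is shown because it defines the comparison. The sequence is the first that the study lists under that name, and it was taken as the guide of these libraries. It had 1 exact site in hg38, at chr5:138464830-138464849 on the plus strand, followed by CGG, in no annotated gene and 630 bases before the EGR1 start. The paper places its targeted element farther upstream of EGR1.
sgEGR1: ggatgacagcgatagaaccc

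The promoters of HBD and HBM were the only 2 of the 10 members matched in the RefSeq promoter table (GRCh38.p14). They are shown because 1 holds letters of the AP-1 motif and the other letters of the EGR motif, the DNA motifs of early factors downstream of Kit. Each covers the 250 bases before the start, with motif matches on either strand in capitals. In HBD, at chr11:5234484-5234733 on the minus strand, TGANTCA (AP-1) stood 180, CCAAT 153 and GATAA (minus strand) 78 bases before the start. In HBM, at chr16:165728-165977 on the plus strand, GCGTGGG (EGR) stood 200 bases (minus strand) and 187 bases before the start, GATAA 63 and CACCC (minus strand) 49.
HBD: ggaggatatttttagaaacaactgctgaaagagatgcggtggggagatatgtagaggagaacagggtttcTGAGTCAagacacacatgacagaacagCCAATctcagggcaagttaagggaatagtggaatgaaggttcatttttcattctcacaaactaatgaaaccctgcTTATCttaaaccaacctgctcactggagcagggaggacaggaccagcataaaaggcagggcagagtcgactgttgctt
HBM: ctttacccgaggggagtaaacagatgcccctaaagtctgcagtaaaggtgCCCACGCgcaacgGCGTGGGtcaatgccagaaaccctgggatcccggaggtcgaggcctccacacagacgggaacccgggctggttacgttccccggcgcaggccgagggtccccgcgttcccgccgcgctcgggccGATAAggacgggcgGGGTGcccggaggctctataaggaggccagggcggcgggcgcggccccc
Over 35116 promoters of the same length, GCGTGGG was held by 6.19%, TGANTCA by 6.57%, GATAA by 20.4%, CCAAT by 32% and CACCC by 54.7%. These matches describe letters only, and binding was not measured.

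Library totals ran from 23498065 to 32039680 counts, and levels below are in CPM, counts per 1000000 counts of a library after TMM scaling, unless another scale is named. EGR1 stood at 10.9, 5.99 and 7.45 CPM in sgControl PBS, 208, 239 and 171 in sgControl SCF, 2.04, 1.12 and 0.977 in sgEGR1 PBS, and 40.4, 57.4 and 203.6 in sgEGR1 SCF. The library labelled sgEGR1 SCF replicate 3 therefore went against its label, with EGR1 within the range of sgControl SCF. The mean of sgEGR1 SCF was 100.5 CPM with it and 48.9 without. On average EGR1 was lower in sgEGR1 cells by a log2 difference of -1.81 (SE 0.458), which did not pass the edgeR test (adjusted p = 0.669). Guide differences of the gamma genes and HBE1, and the SCF calls in sgEGR1 cells, are given with and without this library. All 10 erythroid markers averaged at least 10 CPM, whereas 4 of 7 megakaryocyte markers, 3 of 7 granulocyte and monocyte markers and 4 of 5 lymphoid markers were at 0 in all 12 libraries. The megakaryocyte marker ITGA2B stood at 12 to 35.2 CPM, and every other gene of those 3 lists stayed at or below 1.79 CPM. The methods call the replicates biological and isolated individually, while the labels do not say whether they were separate cultures, so p-values measure the spread between these libraries. Library kits differ between the labels and the methods, and strand use in counting was not given in the sources used here.

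HBB, the adult beta chain, was the most abundant of these genes. Per kb of exonic length it averaged 23670 CPM over the 12 libraries, 3.06-fold above HBA2 at 7737 CPM per kb. HBA1 (3162), AHSP (1095), HBD (530 CPM per kb), HBM (205), HBG1 (136), HBG2 (85.9), HBZ (20.3) and HBE1 (1.24) followed. Each gene was above the next in all 12 libraries except in 2 places: HBM was above HBG1 in 8 of 12 and HBG1 above HBG2 in 11 of 12. The libraries with HBG1 above HBM were all of the sgEGR1 groups, and HBM was the higher in every sgControl library. The levels of HBA1, HBA2, HBG1 and HBG2 depend on how reads shared within each pair were counted. Together the 10 genes took 2.056% to 2.395% of counts in a library, and HBB alone 1.368% to 1.616%.

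**Figure D1:**
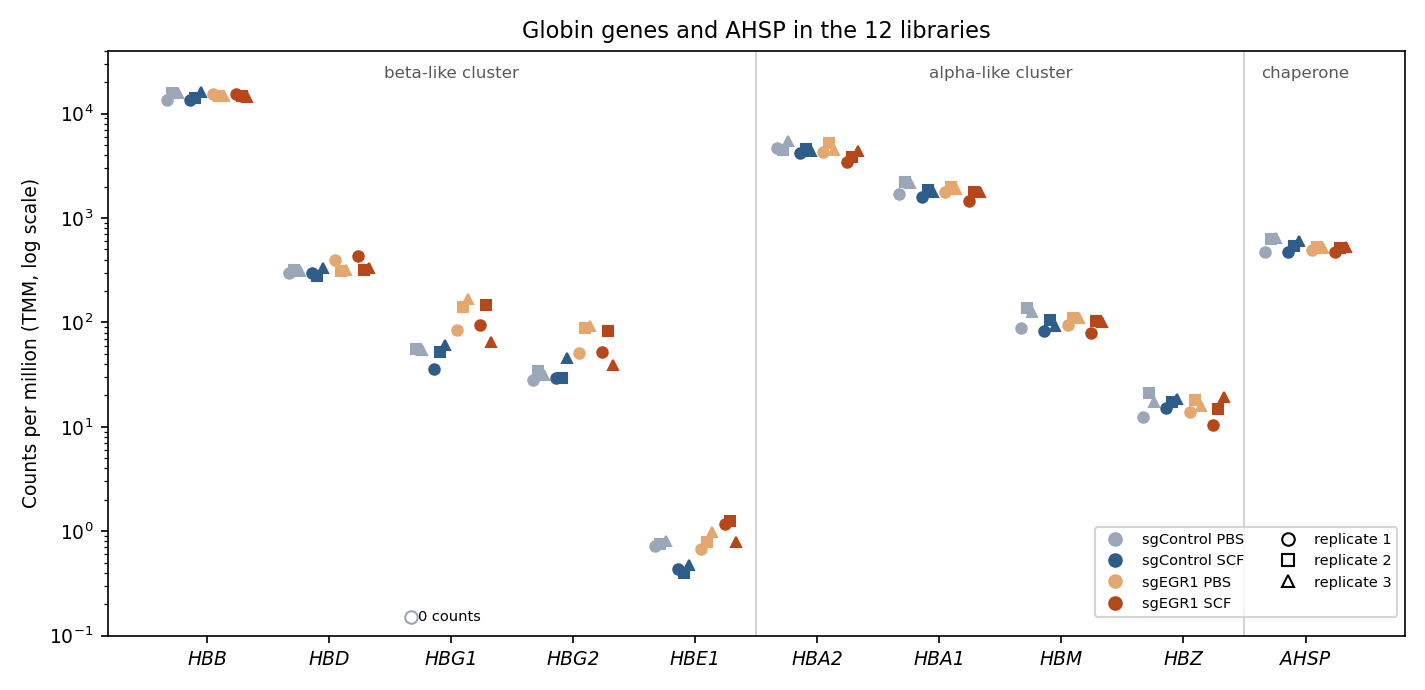
Level of each gene in each library, in TMM-scaled CPM on a log axis, with colors for the 4 groups and shapes for the replicate number. HBB lies near the top in every library, the gamma genes HBG1 and HBG2 spread widest, and the open circle marks the library with 0 HBG1 counts.

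HBE1, HBG2 and HBG1 had the widest spread between libraries. The coefficient of variation over 12 libraries was 6.01% for HBB, 11.5% for AHSP, 12% for HBA1, 12.2% for HBA2, 13% for HBD, 16.5% for HBM and 18.9% for HBZ. The coefficient was 34.7% for HBE1, 48% for HBG2 and 61.9% for HBG1. HBE1 rested on 12 to 36 counts a library.

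The beta-like cluster lies on chromosome 11, with HBB at chr11:5225464-5227071, HBD at chr11:5232838-5234483, HBG1 at chr11:5248269-5249857, HBG2 at chr11:5253188-5254781 and HBE1 at chr11:5268345-5269945, all on the minus strand and of 3 exons (hg38). HBB was steady: it ran from 13398 to 16032 CPM, and all 4 groups overlapped. Averaged over both treatments, HBB was 0.02 higher in sgEGR1 cells on the log2 scale (SE 0.052, 95% interval -0.10 to 0.14, edgeR adjusted p = 0.995). After SCF it differed by -0.04 (SE 0.052, edgeR adjusted p = 0.755).

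HBD, the minor adult beta-like chain, stood at 298, 320 and 314 CPM in sgControl PBS, 299.6, 279 and 333 in sgControl SCF, 399, 308 and 316 in sgEGR1 PBS and 428, 317 and 333 in sgEGR1 SCF. Replicate 1 of each sgEGR1 group was the high library, and the other libraries lay together. The average guide difference was 0.19 (log2, SE 0.084) and did not pass the edgeR test (adjusted p = 0.950).

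The gamma genes had higher levels in most sgEGR1 libraries. HBG2 stood at 27.9, 34.6 and 31.7 CPM in sgControl PBS, 29.6, 29.6 and 45.6 in sgControl SCF, 50.4, 88.9 and 92.7 in sgEGR1 PBS and 52.0, 82.2 and 38.8 in sgEGR1 SCF. The PBS groups did not overlap, and after SCF a single library of sgEGR1, the one labelled replicate 3, lay below the highest sgControl library. HBG2 was 2.02-fold higher in sgEGR1 cells on average (log2 1.01, SE 0.200, 95% interval 0.55 to 1.47), and this did not pass the edgeR test across all genes (adjusted p = 0.370).

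HBG1 followed the same order with more spread. It stood at 0, 55.8 and 53.9 CPM in sgControl PBS, 35.7, 52.3 and 61.4 in sgControl SCF, 84.7, 141 and 166 in sgEGR1 PBS and 94.4, 146 and 64.6 in sgEGR1 SCF. Every sgEGR1 library was above every sgControl library of the same treatment, by little in the library labelled sgEGR1 SCF replicate 3. The 0 counts in sgControl PBS replicate 1 would allow a level of up to 0.108 CPM (3 counts, counting error only). That bound does not hold if HBG1 reads were lost in the counting of that library, which was not tested. The average guide difference was 1.44 (log2, SE 0.558, 95% interval 0.15 to 2.72, edgeR adjusted p = 0.902), and it was 1.14 without that library (adjusted p = 0.321). Leaving out instead the library at odds with its label gave 1.55 (adjusted p = 0.733).

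Groups without overlap were counted for every gene. After PBS, HBG1 and HBG2 were the 2 members higher in all sgEGR1 libraries, against 4.65% of all genes tested, and after SCF HBG1 and HBE1 were, against 3.61%. In bulk RNA, more cells that use gamma-globin and more gamma-globin RNA per cell cannot be told apart.

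No member passed the edgeR test of the average guide difference, and the share called over all 15492 genes was 0% (0 genes). At an unadjusted p under 0.05 there were 4 members and 805 genes, and DESeq2 called 27 genes, HBG2 among them (adjusted p = 0.0162). With the replicate number in the edgeR model HBG2 was called, at 1.99-fold higher (log2 0.99, SE 0.166, adjusted p = 0.0353), among 0.219% of genes called higher. That call held in 3 of 12 fits that left out a library, over adjusted p from 0.000793 to 0.162, and the log2 difference stayed between 0.86 and 1.16.

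The library labelled sgEGR1 SCF replicate 3 bears on this value. With that library left out and the replicate number in the model, the edgeR difference of HBG2 was called on average at 1.16 (adjusted p = 0.000793), in the PBS arm at 1.26 (adjusted p = 0.00859) and in the SCF arm at 1.05 (adjusted p = 0.0360). Without sgControl PBS replicate 1, HBG2 was not called (log2 1.03, adjusted p = 0.0762), while HBG1 was (log2 1.22, adjusted p = 0.0461).

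HBG1 and HBG2 are near-identical copies, and their split depends on how shared reads were assigned. Of the windows of 75 bases, the read length, 61% in HBG1 and 61.1% in HBG2 were also in the other copy. HBG1 took 54.65% to 64.5% of the pair in 11 libraries and 0% in sgControl PBS replicate 1, where 0 of 771 gamma counts were given to HBG1 (Wilson 95% upper bound 0.496%). HBG2 was not raised in that library, at 27.9 CPM against 34.6 and 31.7 in the others of its group, and the sum and the gamma share of that library hold HBG2 counts alone. Summed into 1 gene, the pair was 2.46-fold higher in sgEGR1 cells with the replicate number in the edgeR model (log2 1.30, SE 0.203, adjusted p = 0.0261, among 0.219% of genes called higher), and without it the log2 difference was 1.26 (SE 0.287, adjusted p = 0.625). Reads of HBG1, HBG2 and HBE1 may also be shared with readthrough loci annotated over them. The whole annotated span of HBG2, longer than the coordinates given above for 1 transcript, also overlaps HBE1.

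As a share of beta-like counts, which needs no scaling between libraries, gamma-globin was 0.429% ± 0.197 (SD, n = 3) in sgControl PBS, 0.564% ± 0.0878 in sgControl SCF, 1.34% ± 0.443 in sgEGR1 PBS and 1.03% ± 0.403 in sgEGR1 SCF. The libraries stood at 0.202%, 0.558% and 0.527%, then 0.474%, 0.569% and 0.649%, then 0.839%, 1.499% and 1.68%, then 0.921%, 1.48% and 0.697%. All 6 sgEGR1 libraries lay above all 6 sgControl libraries, the lowest of them being the one labelled sgEGR1 SCF replicate 3, whose 95% Wilson interval of 0.674% to 0.721% lay just above that of sgControl SCF replicate 3 at 0.628% to 0.671%. These intervals cover counting error only and take each estimated count as independent. They would be wider if both mates of a read pair were counted, so they do not show that the libraries differ.

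The odds of gamma among beta-like counts were 2.42-fold higher in sgEGR1 cells (log2 1.28), higher in 6 of 6 same-numbered pairs. The two-sided exact permutation test over 400 arrangements gave p = 0.005, the smallest it allows, and 0.0175 adjusted over the 7 ratios computed for this comparison. The adult share, almost the complement of the gamma share, was among the 7 with the same p. Counting both made the adjusted values of the gamma share lower. Permuted within the replicate number, the exact p was 0.03125, the smallest of 64 arrangements, and 0.109 adjusted. Leaving out the library at odds with its label gave a log2 odds difference of 1.40 (exact permutation, adjusted p = 0.0175), and without sgControl PBS replicate 1 it was 1.04 (adjusted p = 0.0525). The library labelled sgEGR1 SCF replicate 3 had both the highest EGR1 and the lowest gamma share of the sgEGR1 libraries. Replicate 2 of sgEGR1 SCF, however, had more EGR1 than replicate 1 and a higher gamma share (1.48% against 0.921%). A link between EGR1 and the gamma share was not tested.

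**Figure D2:**
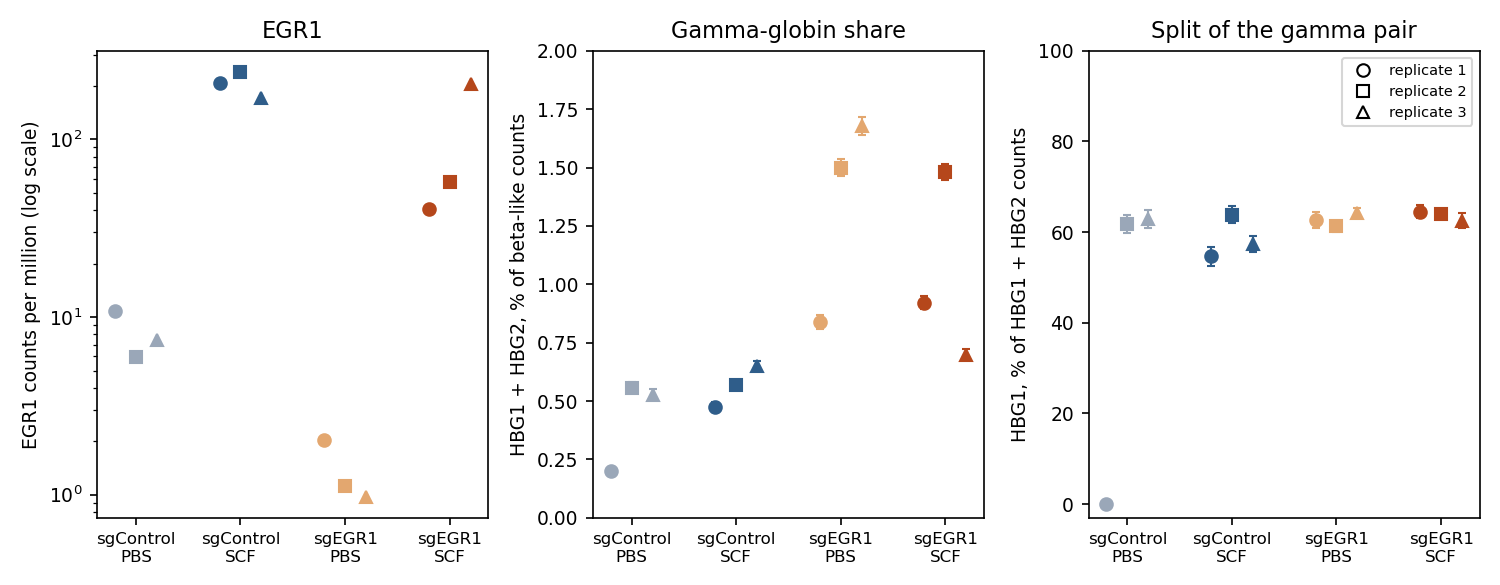
EGR1 in CPM on a log axis (left), HBG1 and HBG2 together as a percent of beta-like counts (middle) and HBG1 as a percent of the gamma pair (right), by library in the 4 groups, with 95% Wilson intervals in the middle and right panels. The sgEGR1 libraries lie from 0.697% to 1.68% in the middle panel and the sgControl libraries from 0.202% to 0.649%, and the right panel shows the library at 0%.

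The odds of gamma differed 3.32-fold between guides after PBS and 1.77-fold after SCF, and in both the exact permutation p was 0.1, the smallest that 3 against 3 libraries allow. The difference after PBS was widened by sgControl PBS replicate 1. Its share of 0.202% held HBG2 counts alone, against 0.558% and 0.527% in the others of its group. The log2 odds difference after SCF was 0.82 over all libraries and 1.07 when the one labelled sgEGR1 SCF replicate 3 was left out. HBG2 alone, whose counts were above 0 in every library, gave a log2 odds difference of 0.94 between guides (exact permutation, adjusted p = 0.035), a reading chosen after seeing the data. That adjusted value was also made lower by the adult share in the same set of ratios. After SCF the gamma share differed by 0.07 on the log2 odds scale, averaged over guides (exact permutation p = 0.825). That average joins opposite signs, 0.52 in sgControl cells (higher in 3 of 3 pairs) and -0.39 in sgEGR1 cells (higher in 1 of 3), and in replicates 2 and 3 alone it was -0.24. In sgControl cells the widest pair was replicate 1 (0.202% to 0.474%), whose PBS library had 0 HBG1 counts. In sgEGR1 cells it was replicate 3 (1.68% to 0.697%), whose SCF library was at odds with its label. Both signs, and the interaction, lean on these pairs. The interaction was -0.91 (permutation p = 0.43). That permutation exchanged guides within each treatment, which takes the guides as alike, so it was not an exact test of the interaction. The adult share, HBB with HBD, mirrored it at 99.6%, 99.4%, 98.7% and 99.0% in the group order above.

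HBE1, the embryonic chain, had the lowest level of the members. Its counts were 20, 19 and 21 in sgControl PBS, 14, 12 and 15 in sgControl SCF, 16, 21 and 28 in sgEGR1 PBS and 34, 36 and 25 in sgEGR1 SCF. It was lower after SCF in all 3 sgControl libraries, the 1 member there whose groups did not overlap, against 9.24% of genes tested. The log2 change was -0.80 (SE 0.280) in sgControl and 0.38 in sgEGR1, and neither passed the edgeR test (adjusted p = 0.188 and 0.558). The interaction of 1.18 (log2, SE 0.382) did not pass either (adjusted p = 1), and it was 1.36 with the library at odds with its label left out.

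The embryonic share of beta-like counts was 0.00496% ± 0.00031 (SD, n = 3) in sgControl PBS, 0.00294% ± 0.000213 in sgControl SCF, 0.00522% ± 0.00105 in sgEGR1 PBS and 0.00691% ± 0.00147 in sgEGR1 SCF. Between guides it was 1.55-fold higher in sgEGR1 cells, in 5 of 6 pairs (exact permutation p = 0.04, adjusted p = 0.0933). HBE1 itself had an average guide difference of 0.69 (log2, SE 0.191, edgeR adjusted p = 0.754). Leaving out the library at odds with its label gave 0.78 for HBE1 (adjusted p = 0.331) and a log2 difference of 0.73 for the embryonic share (exact permutation, adjusted p = 0.0933).

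**Figure D3:**
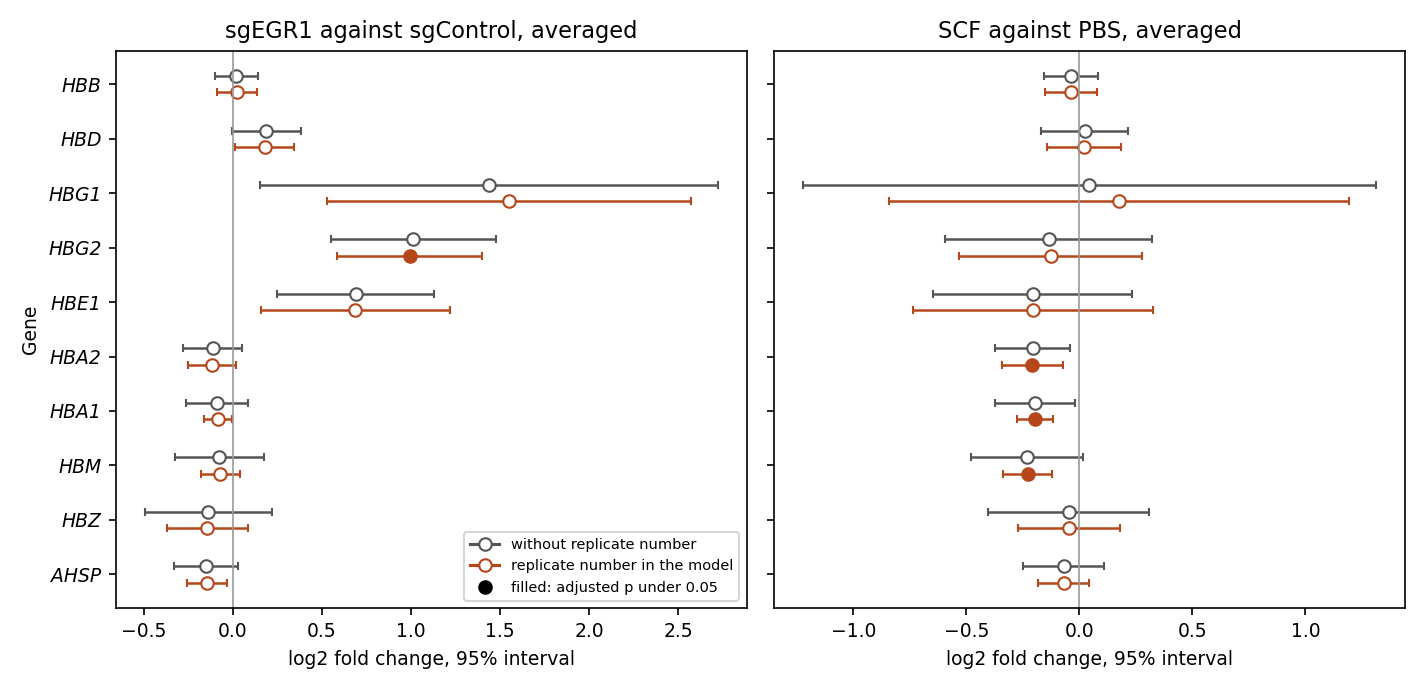
Log2 fold change of each gene with its 95% interval, for sgEGR1 against sgControl averaged over treatments (left) and SCF against PBS averaged over guides (right), from edgeR without the replicate number (gray) and with it (red); filled points have adjusted p under 0.05. HBG2 is filled on the left at 0.99, and HBA1, HBA2 and HBM on the right at -0.20, -0.21 and -0.23.

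The remaining members had small guide differences, none of which passed the test. AHSP differed by -0.15 (log2, SE 0.077) and HBZ -0.14, HBA2 -0.11, HBA1 -0.09 and HBM -0.08, with edgeR adjusted p from 0.969 to 0.978. Over the 10 members the median log2 guide difference was -0.0281, beside -0.000657 over all genes. Within a treatment, 0 members and 0% of all genes passed after PBS (2 members and 715 genes at an unadjusted p under 0.05, 17 genes by DESeq2), and 0 members and 0% after SCF (2 members and 361 genes unadjusted, 4 genes by DESeq2), with no member among the DESeq2 calls. The interaction of guide and SCF also called 0 members and 0% of genes (1 member and 306 genes unadjusted, 4 genes and 0 members by DESeq2).

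The adult alpha genes and HBM had lower levels after SCF in most pairs of libraries. The cluster lies on chromosome 16, with HBZ at chr16:152644-154503, HBM at chr16:165978-166764, HBA2 at chr16:172876-173710 and HBA1 at chr16:176680-177522, all on the plus strand and of 3 exons. HBA1, an adult alpha chain, stood at 1692, 2214 and 2168 CPM in sgControl PBS and 1580, 1855 and 1778 in sgControl SCF. In sgEGR1 cells it stood at 1759, 1974 and 1888 after PBS and 1446, 1770 and 1772 after SCF. Each SCF library was below the PBS library of the same number in both guides, although the groups overlapped.

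HBM, a gene of the cluster whose transcript is known in erythroid cells, showed the same order. It stood at 89.4, 137 and 126 CPM in sgControl PBS, 82.7, 107 and 92.3 in sgControl SCF, 93.5, 110 and 110 in sgEGR1 PBS and 79.3, 103 and 101 in sgEGR1 SCF. All 6 SCF libraries were below their same-numbered PBS library, and the groups overlapped.

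HBA2, the other adult alpha chain, was lower in 5 of 6 pairs. It stood at 4636, 4486 and 5434 CPM in sgControl PBS, 4172, 4621 and 4404 in sgControl SCF, 4288, 5277 and 4502 in sgEGR1 PBS and 3430, 3846 and 4380 in sgEGR1 SCF. Replicate 2 of sgControl was the pair that went the other way. HBZ, the embryonic alpha-like chain, ran from 10.4 to 21.1 CPM with all groups overlapping.

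Without the replicate number, no member passed the edgeR test of the average SCF response, against 9.03% of all genes (2 members and 3514 genes at an unadjusted p under 0.05). HBA1 changed by -0.20 (log2, SE 0.0759, adjusted p = 0.140), HBA2 by -0.21 (SE 0.0721, adjusted p = 0.104) and HBM by -0.23 (SE 0.108, adjusted p = 0.225). Among the members DESeq2 called HBA2 alone (adjusted p = 0.0351). The median over the members was -0.103, beside -0.00447 over all genes.

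With the replicate number in the edgeR model, 3 of the 10 members fell, against 8.11% of genes called lower. HBA1 fell by 0.20 (log2, SE 0.0320, 1.15-fold, adjusted p = 0.0013), HBM by 0.23 (SE 0.0444, 1.17-fold, adjusted p = 0.00383) and HBA2 by 0.21 (SE 0.0545, 1.15-fold, adjusted p = 0.0206). The calls of HBA1 and HBM held in 12 of 12 fits that left out a library, and that of HBA2 in 6 of 12. HBZ (-0.05, adjusted p = 0.786) and AHSP (-0.07, adjusted p = 0.350) did not pass.

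**Figure D4:**
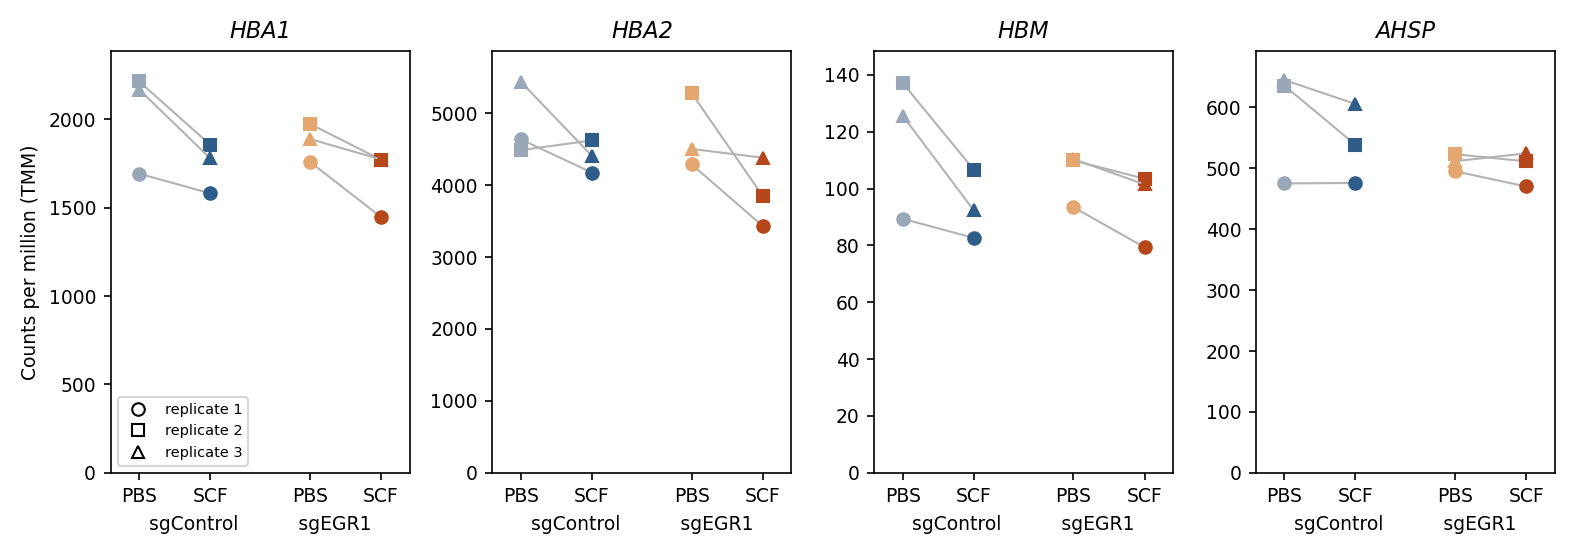
HBA1, HBA2, HBM and AHSP in TMM-scaled CPM by library, with lines joining libraries of the same replicate number before and after SCF within each guide; axes start at 0. Every line falls for HBA1 and HBM, 5 of 6 fall for HBA2, and the circles of replicate 1 lie low for HBA1, HBM and AHSP.

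Within a guide, 0 members passed the edgeR test without the replicate number, against 2.89% of genes in sgControl cells (1 member and 2222 genes unadjusted, 780 genes and 0 members by DESeq2) and 2.59% in sgEGR1 cells (1 member and 2328 genes unadjusted, 794 genes and 0 members by DESeq2). With it, HBA1 (log2 -0.21, adjusted p = 0.0137) and HBM (-0.31, adjusted p = 0.0107) fell in sgControl cells, against 2.76% of genes called lower. In sgEGR1 cells HBA1 (-0.18, adjusted p = 0.0337) and HBA2 (-0.27, adjusted p = 0.0496) fell, against 3.26%. These within-guide calls held in 8, 9, 6 and 3 of 12 fits that left out a library, in the order named. Without the library labelled sgEGR1 SCF replicate 3, HBA1 in sgEGR1 cells was not called (-0.20, adjusted p = 0.0692) and HBA2 was (-0.34, adjusted p = 0.0463).

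HBA1 and HBA2 share more sequence than the gamma pair, with 80.7% and 80.9% of 75-base windows in common. The whole annotated span of HBM, longer than the coordinates given above for 1 transcript, overlaps HBZ. HBA1 took 26.7% to 33.0% of the pair. As 1 summed gene with the replicate number in the edgeR model, HBA1+HBA2 fell by 0.20 after SCF (log2, SE 0.0420, adjusted p = 0.00536), with 8.09% of genes called lower in that fit. It was not called without the replicate number (-0.20, adjusted p = 0.0878). Within a guide and with the replicate number, HBA1+HBA2 was called in sgEGR1 cells (-0.25, adjusted p = 0.0265) and not in sgControl cells (-0.16, adjusted p = 0.129), where HBA1 alone was.

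AHSP, at chr16:31527900-31528803 on the plus strand with 3 exons, stood at 475, 636 and 645 CPM in sgControl PBS, 476, 539 and 606 in sgControl SCF, 495, 523 and 512 in sgEGR1 PBS and 470, 511 and 525 in sgEGR1 SCF. All 4 groups overlapped and the lowest library of each was replicate 1. Per count of HBA1 and HBA2, AHSP was 0.0850 ± 0.00991 (SD, n = 3), 0.0880 ± 0.00867, 0.0780 ± 0.00517 and 0.0909 ± 0.00558 in the same group order. That ratio was 1.10-fold higher after SCF in 5 of 6 pairs and did not pass (exact permutation p = 0.095, adjusted p = 0.333).

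Beta-like counts exceeded alpha-like counts in every library. The ratio was 2.20 ± 0.142 (SD, n = 3) in sgControl PBS, 2.38 ± 0.219 in sgControl SCF, 2.35 ± 0.273 in sgEGR1 PBS and 2.75 ± 0.422 in sgEGR1 SCF. It was 1.12-fold higher after SCF (exact permutation p = 0.08, adjusted p = 0.333) and the guide difference did not pass either (exact permutation p = 0.15). Zeta made up 0.241%, 0.271%, 0.237% and 0.259% of alpha-like counts, and HBM 1.67%, 1.499%, 1.57% and 1.67%.

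Several members differed with the replicate number. In a model with a term for replicate 1, HBM (log2 -0.36, edgeR adjusted p = 0.000224), HBA1 (-0.25, adjusted p = 0.000153), HBZ (-0.47, adjusted p = 0.00298), AHSP (-0.22, adjusted p = 0.00442) and HBA2 (-0.17, adjusted p = 0.0457) were lower in replicate 1 than in replicates 2 and 3. That was 5 of 10 members, against 13.4% of genes called lower, and HBA2 held in 4 of 12 fits that left out a library, the other 4 genes in all 12. HBG1 (-1.01, adjusted p = 0.112), HBG2 (-0.42, adjusted p = 0.0979) and HBD (0.16, adjusted p = 0.111) did not pass. Why replicate 1 differed was not tested.

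Other genes of the globin system were read from the same fits. HBQ1, an alpha-like gene of unclear function, ran from 14.8 to 19.5 CPM and its log2 SCF response of -0.19 was called with the replicate number in the edgeR model (adjusted p = 0.0365) and not without it (adjusted p = 0.0863). HBBP1, the beta-cluster pseudogene, differed by 0.21 between guides and BGLT3, a noncoding gene beside the gamma genes with 8 to 40 counts a library, by 1.02, and neither passed (edgeR adjusted p = 0.969 and 0.799). Of the 8 globin relatives in this list, 4 passed the filter on low counts. The fourth, HBZP1, a zeta pseudogene named here after its values were seen, had 10, 15 and 17 counts in sgControl PBS, 0, 0 and 0 in sgControl SCF, 0, 11 and 23 in sgEGR1 PBS and 14, 12 and 0 in sgEGR1 SCF. Its average SCF response did not pass the edgeR test (adjusted p = 0.0889).

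Among 18 factors known to act at the globin loci, all tested, 2 rose after SCF, against 5.58% of all genes called higher: MAFG, a small Maf partner of NFE2 (log2 0.37, edgeR adjusted p = 1.47e-05), and ZBTB7A, a repressor of gamma-globin (0.25, adjusted p = 0.0255). Without the replicate number 0 factors were called lower by edgeR, against 3.45% of all genes. With the replicate number in the model 3 factors fell, against 8.11% of all genes: BCL11A, the gamma-globin repressor (-0.35, adjusted p = 0.000743), KLF1, an activator of HBB (-0.11, adjusted p = 0.0242), and TAL1, a factor of early blood and erythroid genes (-0.08, adjusted p = 0.0317). For BCL11A the paper treats the SCF response as upregulation, measured by qPCR in gene-edited HUDEP-2 cells and their controls. Why the directions differ was not tested. Of 13 heme genes, 1 fell without the replicate number, PPOX of heme synthesis (-0.16, adjusted p = 0.00575), against 3.45% of all genes, and 7 fell with it, against 8.11%, among them FECH (-0.12, adjusted p = 0.00454), UROS (-0.11, adjusted p = 0.00577) and ALAS2 (-0.15, adjusted p = 0.00967), which encode enzymes of the same pathway. The median log2 change was -0.0966 over the heme genes and -0.0228 over the factors. Between guides 0 genes of these lists were called in either edgeR model or by DESeq2. At an unadjusted p under 0.05 there were 1 factor and 0 heme genes without the replicate number, and 4 factors and 2 heme genes with it.

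The genes whose log2 CPM ran most like a member's are given as a description over 12 libraries, which share their groups, replicate numbers and depth. Among 7127 genes averaging at least 20 CPM, ALDH9A1 (r = 0.928), RTN3 (0.923), DENND10 (0.894) and STOM (0.893) were most like the sum of HBG1 and HBG2. TBC1D7 (0.918), RBX1 (0.884), RACGAP1 (0.877) and RPL36A (0.873) were most like HBB. DDX10 (0.939), ZDHHC17 (0.922), SIK3 (0.915) and IFIH1 (0.911) were most like HBA1+HBA2, and RPL22 (0.978), RPL21 (0.976), RPS4X (0.969) and PFDN5 (0.965) most like AHSP. Among the members, HBA1 ran most like HBM (r = 0.967), ahead of AHSP (0.816) and HBZ (0.773).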

How the data were processed

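RNA-seq was made from 12 HUDEP-2 libraries in 4 groups of 3. Per the study's methods, the authors sequenced paired-end reads of 75 bases, aligned them with HISAT to hg38 and took gene counts from StringTie. The labels' processing notes list bcl2fastq, HISAT2 and SAMtools. The deposited matrix holds estimated counts, all whole (0 deviations), and 0 other value columns. Columns coded SG2 were taken as sgEGR1, the only other construct in the labels. The sequence of the control guide is not reported here. Annotation release, multimapper treatment and strand use are not given in the sources used here.

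Genes passing filterByExpr (15492) were tested in R 4.3.3 with the quasi-likelihood test of edgeR 4.0.16 (TMM, 1 coefficient per group, Benjamini-Hochberg over all genes, threshold 0.05). DESeq2 1.42.0 was an alternative. Shares and ratios were tested with two-sided exact permutation tests over libraries (SciPy 1.17.1) and adjusted over 7 ratios, among which the gamma and adult shares are near complements. For the interaction, guide labels were exchanged within each treatment, which is not an exact test of it. Intervals of shares are Wilson 95% and cover counting error only, since the methods describe no molecular identifiers. They take each estimated count as independent and would be too narrow if both mates of a read pair were counted. Intervals of log2 differences are 95% intervals from the edgeR standard errors and reflect the spread between libraries. Totals of 23498065 to 32039680 counts put 3 counts at 0.0937 to 0.128 CPM. Exon lengths are from GENCODE on hg38. The alternatives were other size factors, no filter, replicate terms, left-out libraries and summed paralogs. Code was tested on simulated data. Members and lists were chosen with earlier results of these data known. Named genes were all members, EGR1, HBQ1, HBBP1 and BGLT3, up to 4 called genes per other list by p, and the 4 genes most correlated with each pattern.

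The replicate numbers come from the labels, which state no shared day or batch. Deviations from group means correlated within every same-numbered pair (r = 0.172 to 0.677 over 8717 genes). The numbers were treated as pairing the libraries. For replicate 1, r was 0.499 to 0.677, and for replicates 2 and 3 it was 0.172 to 0.407. Because deviations share a group mean, a replicate 1 that stands apart can alone make r positive in the other pairs. Libraries of different numbers were not compared, so a pairing of replicates 2 and 3 was not shown. No 2 libraries of the same group were alike within sampling noise.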

Additional observations from a re-analysis of the deposited data

How the results depend on the processing

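Fold changes were tallied for 41 results, of members picked by name within each comparison, and other members were not tallied. Of the tallied fold changes under each alternative, 593 kept direction and side of the threshold, 28 gained and 45 lost the call, and 0 reversed. Members with changes near 0 were mostly outside that pick. The replicate block changed no other call than those in the report. The number of members called for SCF in sgControl cells went from 0 to 2 with the replicate block, 2 with a replicate 1 term and 2 in replicates 2 and 3 alone. In sgEGR1 cells it went from 0 to 2 with the block and 2 with the term. For the average SCF response it went from 0 to 3 with the block, 3 with the term, 2 in replicates 2 and 3, 2 with the block and summed paralogs and 1 with DESeq2, and leaving out a library without the block gave 0 to 2 (2 without sgControl PBS replicate 1). For the average guide difference it was 1 with the block, 1 with the term, 1 with the block and summed paralogs and 1 with DESeq2. With the block, leaving out a library gave 0 to 2 members for SCF in sgControl and 0 to 2 in sgEGR1 cells, and 0 to 1 for the guide after PBS, 0 to 1 after SCF and 0 to 1 on average. The cause was not tested.

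On the log2 scale of the ratios, the gamma share between guides was 1.28 with the replicate block (adjusted p = 0.109) and 1.16 in replicates 2 and 3, and 1.04 to 1.43 with a library left out. The adult share was -1.27 with the block, -1.15 in replicates 2 and 3, and -1.42 to -1.03 with a library left out. The average SCF difference of the gamma share was -0.24 in replicates 2 and 3, -0.12 for HBG2 alone, and -0.17 to 0.20 with a library left out, and that of the adult share 0.24, and -0.19 to 0.17. With a library left out, the embryonic share between guides ran from 0.56 to 0.73 on average and from -0.090 to 0.20 after PBS, the zeta share from -0.11 to 0.055 and the AHSP ratio from -0.077 to 0.0078. The HBM share between guides was -0.016 in replicates 2 and 3 and -0.023 to 0.11 with a library left out, and after SCF -0.088 to 0.045. HBE1, at 12 to 36 counts, is limited by depth. Alternatives HBG2 alone, block with a library left out and block with summed paralogs were chosen after seeing the data.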
